A study of Arabidopsis thaliana with 7 samples.

Results

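The genes described here are the 41 glucosinolate genes of a list of locus identifiers, among the 33602 genes of the count table. All 41 identifiers were present in the table. Of these, 22 were assigned to the aliphatic branch, 9 to the indolic branch, and 10 to both branches or to steps after synthesis. The assignment was not tested, and it places the glucosyltransferase gene UGT74B1 among the indolic genes. The material was whole wild-type *Arabidopsis thaliana* seedlings of Col-0, the reference accession, grown for 14 days on MS medium at 22 °C, in days of 16 h light and nights of 8 h. They carried no mutation, transgene or treatment beyond that temperature, and 3 replicate RNA libraries were made. The study set out to relate transcription to H3K4 methylation. Its 4 chromatin and input libraries were not analysed here. With a single RNA group there is no contrast between conditions, so the comparisons are between libraries and, within each library, between genes.

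Glucosinolates are sulfur-rich, sugar-bound defence compounds of the cabbage order. Aliphatic ones are built from methionine, whose side chain is first lengthened, and indolic ones from tryptophan. A shared core pathway turns the amino acid into an aldoxime, adds sulfur, and attaches glucose and sulfate, after which the side chain is modified. The intact compounds are stored apart from beta-glucosidases called myrosinases. When tissue is damaged the enzymes reach them, and specifier proteins decide which products form. In Arabidopsis shoots myrosinase is known from guard cells and from idioblasts along the veins called myrosin cells.

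The 3 libraries held 30946664, 18493022 and 20764970 counts. Their rRNA genes took 1.201%, 1.39% and 2.97% of counts in replicates 1, 2 and 3, so replicate 3 stood apart in rRNA. Its part in the results below was not tested. Members whose call ends when a library is left out are named below, with the value for some of them. Levels are CPM, counts scaled by library total and by TMM factors (trimmed mean of M-values). No exon lengths were used, so CPM depends on transcript length and no order of transcript abundance between genes is drawn from it. A comparison of 2 genes below is a ratio of reads: for equal transcript numbers, the first gene's transcript would have to be longer in the same proportion. The labels do not say whether replicates were separate plants, so p-values cover only the differences among these 3 libraries, technical ones included. Marker genes of shoot and root were both present. The mesophyll genes RBCS1A, LHCB1.3 and RCA averaged 10326, 7065 and 4510 CPM, and all 3 root markers were expressed, up to PHT1;1 at 42.6 CPM. All 4 guard and myrosin cell markers were expressed, with FAMA at 40.9 ± 3.26 CPM (SD, n = 3). The floral genes AG and AP3 had at most 2 counts in any library. The seed genes CRA1 and OLEO1 were both expressed, at 16.2 and 1.33 CPM, and the source of their reads was not tested. In such bulk tissue, fewer cells of a type and less RNA per cell cannot be told apart.

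The glucosinolate genes were nearly all transcribed. A mean of at least 1 CPM, the level called expressed here, was reached by 39 of 41 members (95.1%), against 56.3% of all genes. A mean of at least 100 CPM was reached by 19 of 41 (46.3%), against 5.9% of all genes and 10.5% of expressed genes. The median over members was 96.96 CPM, beside 2.95 CPM over all genes, many of which have no count. The members summed to 10368, 10268 and 10363 CPM in replicates 1, 2 and 3, so about 1.04%, 1.04% and 1.02% of all counts fell on them. The 2 members under 1 CPM were MYB122 and AOP3.

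**Figure D1:**
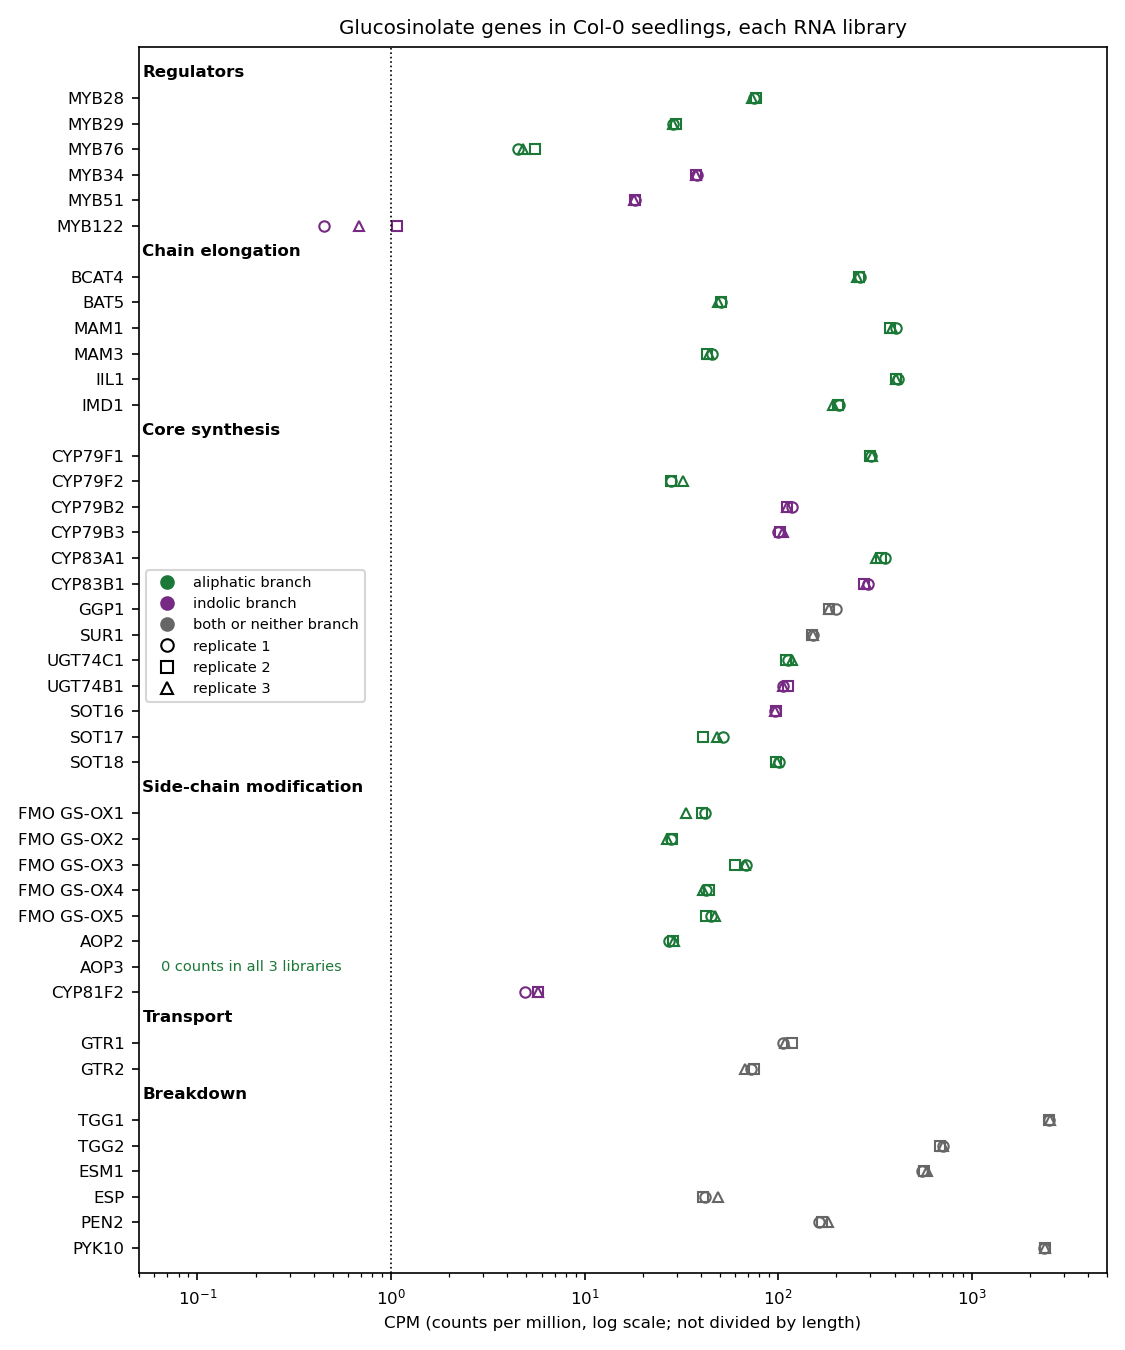
CPM of each of the 41 glucosinolate genes in each of the 3 RNA libraries, on a log axis, ordered by role and coloured by branch. The dotted line marks 1 CPM. MYB122 straddles it, AOP3 has no count, and TGG1 and PYK10 lie highest in every library.

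The branch regulators are R2R3-type MYB transcription factors, MYB28, MYB29 and MYB76 for aliphatic genes and MYB34, MYB51 and MYB122 for indolic ones. MYB28 (AT5G61420), the main activator of aliphatic synthesis, stood at 75.3, 76.8 and 73.3 CPM in replicates 1, 2 and 3. MYB29 (AT5G07690) stood at 28.7, 29.8 and 28.5 CPM. MYB76 (AT5G07700), next to MYB29 in the gene order, stood at 4.53, 5.56 and 4.82 CPM. The values of the 3 aliphatic regulators did not overlap in any library. MYB28 and MYB29 each kept to a narrow band, and MYB76, with 140, 104 and 99 counts, spread more widely.

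Among the indolic regulators, MYB34 (AT5G60890), also known as ALTERED TRYPTOPHAN REGULATION 1, stood at 37.98, 37.5 and 37.5 CPM. MYB51 (AT1G18570), known as HIGH INDOLIC GLUCOSINOLATE 1, stood at 18.1, 18.2 and 17.9 CPM. MYB122 (AT1G74080) had only 14, 20 and 14 counts. That is 0.453, 1.07 and 0.682 CPM, so replicate 2 alone exceeded 1 CPM. MYB51 and MYB34 had the smallest spread of the regulators, with a coefficient of variation (SD over mean) of 0.738% and 0.792%. Neither spread was beyond counting error (edgeR goodness-of-fit, adjusted p = 0.986 and 0.957), so no steadiness is read from them. None of the 6 regulators reached 100 CPM. In the test against counting error described below, edgeR called 0 of the 5 expressed ones, against 32.8% of all expressed genes. At an unadjusted p under 0.05 it also had 0 of 5, against 43.7%.

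Chain elongation lengthens methionine before the core pathway and was expressed in full, 6 of 6 genes. BCAT4 (AT3G19710), the aminotransferase that starts the cycle, stood at 266, 261 and 257 CPM. BAT5 (AT4G12030), which carries the resulting keto acid into the plastid, stood at 50.8, 50.8 and 48.95 CPM. These values barely moved between libraries.

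MAM1 (AT5G23010), a methylthioalkylmalate synthase that adds the extra carbon, stood at 404, 377 and 389 CPM. Its neighbour MAM3 (AT5G23020, IMS2 in the gene table), which also makes the longest chains, stood at 45.4, 43.1 and 44.1 CPM. Reads of MAM1 outnumbered those of MAM3 by 8.90, 8.75 and 8.81-fold in replicates 1, 2 and 3. The isomerase large subunit gene IIL1 (AT4G13430) stood at 419, 404 and 408 CPM, and the dehydrogenase gene IMD1 (AT5G14200) at 205, 205 and 192 CPM. Leucine synthesis uses the same reactions, and IIL1 is known to serve both.

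The core pathway starts with the CYP79 cytochromes P450, which turn amino acids into aldoximes. CYP79F1 (AT1G16410), which accepts short and long elongated methionines, stood at 300.1, 299 and 307 CPM. CYP79F2 (AT1G16400), limited to long ones, stood at 27.8, 28.0 and 32.1 CPM. CYP79F1 took 91.5%, 91.4% and 90.5% of the reads of this adjacent pair (95% Wilson intervals 90.96 to 92.0%, 90.7 to 92.1% and 89.8 to 91.2%). The intervals take each count as independent, so they are too narrow if both reads of a pair were counted. The tryptophan enzymes CYP79B2 (AT4G39950) and CYP79B3 (AT2G22330) lie on different chromosomes and shared their reads nearly evenly. CYP79B2 stood at 117, 111 and 111 CPM and CYP79B3 at 100.3, 102 and 106 CPM.

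The CYP83 enzymes oxidise the aldoximes. CYP83A1 (AT4G13770), which prefers aliphatic ones, stood at 358, 339 and 319 CPM. CYP83B1 (AT4G31500), which takes the indolic one, stood at 292, 278 and 285 CPM. The lowest CYP83A1 library still lay above the highest CYP83B1 library.

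Sulfur enters as glutathione, and 2 members then act in both branches. GGP1 (AT4G30530), a gamma-glutamyl peptidase that trims the conjugate, stood at 199, 182 and 184 CPM. SUR1 (AT2G20610), the C-S lyase that frees the thiohydroximate, stood at 151, 150.3 and 152 CPM. SUR1 had a coefficient of variation of 0.481%, the second smallest of the 39 expressed members after PYK10. That spread was not beyond counting error (edgeR goodness-of-fit, adjusted p = 0.952).

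Glucose is then added by UGT74 enzymes and sulfate by SOT enzymes. UGT74B1 (AT1G24100) stood at 107, 113 and 106 CPM. AT2G31790, entered in the list as UGT74C1 and given no name in the gene table, stood at 112, 110.4 and 118 CPM. The values of these 2 genes overlapped. SOT16 (AT1G74100), which prefers indolic substrates, stood at 96.1, 98.1 and 96.7 CPM. Its neighbour SOT18 (AT1G74090), which prefers aliphatic ones, stood at 101, 97.2 and 98.9 CPM, and these values overlapped as well. SOT17 (AT1G18590), the other aliphatic enzyme, stood at 51.9, 41.05 and 48.4 CPM, lowest in replicate 2.

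Side-chain modification is represented by 7 aliphatic genes and 1 indolic gene. The 5 FMO GS-OX genes encode flavin monooxygenases that turn methylthioalkyl into methylsulfinylalkyl glucosinolates. They ranged from FMO GS-OX2 (AT1G62540) at 27.6 ± 0.908 CPM to FMO GS-OX3 (AT1G62560) at 65.1 ± 4.70 CPM. FMO GS-OX1 (AT1G65860) stood at 41.7, 40.6 and 33.5 CPM, lowest in replicate 3. FMO GS-OX4 (AT1G62570) averaged 42.5 ± 1.36 CPM and FMO GS-OX5 (AT1G12140) 44.9 ± 2.32 CPM. No gene of the family held most of its reads: the mean shares ran from 12.6% for FMO GS-OX2 to 29.8% for FMO GS-OX3.

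The AOP genes encode dioxygenases that make alkenyl (AOP2) and hydroxyalkyl (AOP3) glucosinolates in other accessions, and Col-0 is known to lack both activities. AOP2 (AT4G03060), listed as a transcribed pseudogene in the gene table, stood at 27.3, 28.5 and 29.03 CPM. AOP3 (AT4G03050), 1 gene away, had no count in any library, which allows up to 3 counts or 0.0970, 0.160 and 0.146 CPM. Against that floor of 3 counts per library, AOP2 reads were at least 282-fold, 177-fold and 198-fold higher than those of AOP3. Were both reads of each pair counted, the floor would be 6 counts and the bounds 141-fold, 88-fold and 99-fold. CYP81F2 (AT5G57220), the indole hydroxylase whose product is used in pathogen defence, stood at 4.91, 5.72 and 5.75 CPM.

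Both transporters were expressed. GTR1 (AT3G47960) and GTR2 (AT5G62680) import glucosinolates into cells and are known for loading them into the phloem. GTR1 stood at 106, 118 and 108 CPM, and GTR2 at 72.6, 74.9 and 67.3 CPM. Replicate 2 was the highest library for both.

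The breakdown genes took most of the reads. The 6 of them held 61.4%, 62.0% and 62.4% of all counts on the 41 members in replicates 1, 2 and 3, and TGG1 and PYK10 together held 47.2%, 47.7% and 47.7%. TGG1 (AT5G26000), a shoot myrosinase, stood at 2520.3, 2513 and 2551 CPM and ranked 15th by mean CPM of all 33602 genes. TGG2 (AT5G25980), a second shoot myrosinase with 2 genes between it and TGG1, stood at 707, 686 and 712 CPM. TGG1 took 78.1%, 78.5% and 78.2% of the reads of the pair.

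PYK10 (AT3G09260), the main beta-glucosidase of root ER bodies, stood at 2374, 2388 and 2393 CPM and ranked 17th. Its coefficient of variation, 0.407%, was the smallest of all expressed members. PEN2 (AT2G44490), an atypical myrosinase that acts on indolic glucosinolates in pathogen defence, stood at 163, 168 and 181 CPM. ESM1 (AT3G14210), which favours isothiocyanates over nitriles, stood at 557, 569 and 585 CPM. ESP (AT1G54040), the epithiospecifier protein that favours nitriles and is known for weak activity in Col-0, stood at 41.9, 41.05 and 48.9 CPM. ESM1 exceeded ESP in every library without overlap.

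The aliphatic branch held more reads than the indolic branch at 5 of 6 matched steps in every library, with CYP81F2 as the indolic gene for side chains. Steps were matched by role and not by number of genes. The SOT step set SOT17 and SOT18 against SOT16 alone, and the side-chain step set the FMO GS-OX genes against CYP81F2 alone. The values of SOT18 by itself overlapped those of SOT16. Over all branch genes, the 22 aliphatic genes summed to 2702, 2612 and 2613 CPM, and the 9 indolic genes to 774, 765 and 767 CPM. The log2 ratio of reads was 1.80, 1.77 and 1.77, a mean of 1.78 ± 0.0192 (SD, n = 3) or 3.44-fold. The aliphatic list is longer and holds the 6 elongation genes, which have no indolic counterpart. Taken as the median gene of each branch, the ratio turned to -0.98 ± 0.0738, with the median indolic gene above the median aliphatic gene. The sums and the medians thus differ in sign, and no branch is called higher from them.

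Step by step, the regulators had a log2 ratio of 0.95 ± 0.0294, with the aliphatic MYB genes at 109, 112 and 107 CPM and the indolic ones at 56.6, 56.7 and 56.1 CPM. At the CYP79 step the ratio was 0.62 ± 0.0257, with CYP79F1 and CYP79F2 together at 328, 327 and 339 CPM and CYP79B2 and CYP79B3 together at 218, 214 and 217 CPM. The SOT step had 0.59 ± 0.0873, with SOT17 and SOT18 together at 153, 138 and 147 CPM against the SOT16 values above. All 3 steps had the same direction in each library, and the SOT step, at 0.67, 0.49 and 0.61 in replicates 1, 2 and 3, varied most of them.

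The CYP83 step had a smaller log2 ratio, 0.29, 0.29 and 0.16 in replicates 1, 2 and 3. The UGT74 step had 0.07, -0.03 and 0.15, a mean of 0.06 ± 0.0909, which is within its own spread and differs in sign between libraries. That ratio rests on placing UGT74B1 on the indolic side. At side-chain modification the FMO GS-OX genes summed to 225, 215 and 216 CPM against the 4.91, 5.72 and 5.75 CPM of CYP81F2, a log2 ratio of 5.33 ± 0.166 or 40.1-fold. CYP81F2 was the only indolic gene at that step, and its relative CYP81F4 of the second list averaged 292 ± 4.69 CPM. With CYP81F4 in its place, a choice made after the values were seen, the log2 ratio turned to -0.42 ± 0.0444, so its sign depends on which gene stands for the indolic side. With 3 libraries the smallest two-sided p of an exact sign-flip permutation test is 0.25. Every branch comparison gave that p except the UGT74 step (exact sign-flip p = 0.50), and after Benjamini-Hochberg adjustment over these 7 comparisons p was 0.292 and, for UGT74, 0.50. None of these ratios passed the threshold of 0.05, and the steps differ in the number of genes on each side.

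**Figure D2:**
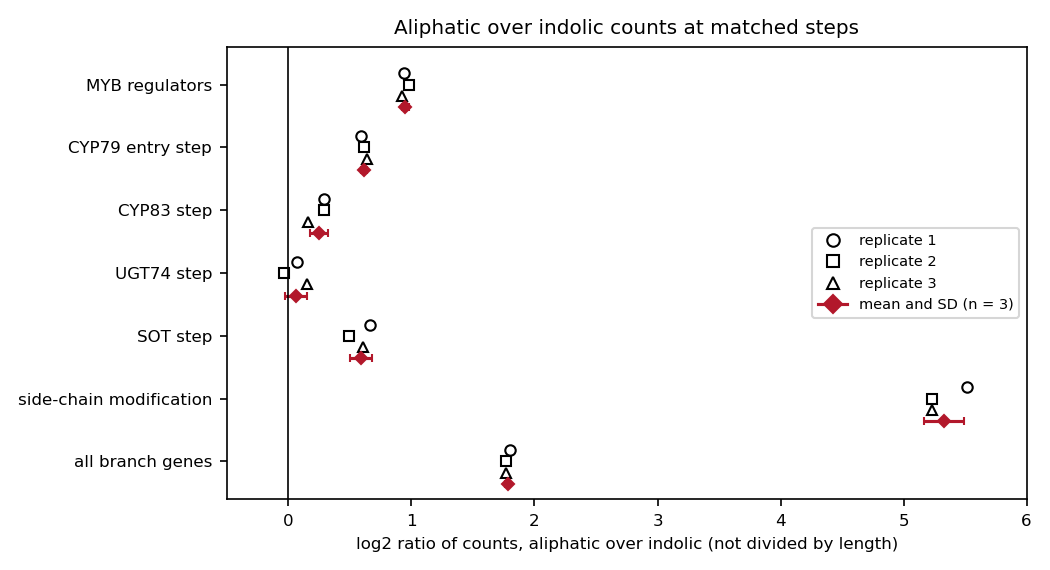
Log2 ratio of reads, aliphatic over indolic, at 6 matched steps and over all branch genes. Black symbols are the 3 libraries, red diamonds the mean with its SD. Only the UGT74 step crosses 0, and side-chain modification, with CYP81F2 as its only indolic gene, lies at 5.33 (it turned to -0.42 with CYP81F4).

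Within pairs of related genes, the split of reads kept its direction in every library. How steady it was between libraries was not tested. For MYB28 over MYB29 the log2 ratio was 1.37 ± 0.0167, and MYB51 over MYB34 had -1.06 ± 0.0123, so MYB51 had the fewer reads in every library. MAM1 over MAM3 had 3.14 ± 0.0121 and TGG1 over TGG2 1.85 ± 0.0203. The split moved more for CYP79F1 over CYP79F2 (3.37 ± 0.0974) and for SOT18 over SOT17 (1.08 ± 0.148). CYP79B2 over CYP79B3 had 0.23, 0.13 and 0.07, always above 0 and close to it. GTR1 over GTR2 had 0.63 ± 0.0766, and PYK10 over PEN2 3.804 ± 0.0734. For each of the 10 pairs the exact sign-flip p was 0.25, the smallest that 3 libraries allow, and 0.25 after adjustment over the pairs.

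Many of these genes sit side by side. No gene lies between CYP79F1 and CYP79F2, MYB29 and MYB76, MAM1 and MAM3, SOT16 and SOT18, or FMO GS-OX3 and FMO GS-OX4 in the gene table, and 1 gene lies between AOP2 and AOP3. Neighbours had unlike read levels in some pairs and like levels in others: 302 against 29.3 CPM for CYP79F1 and CYP79F2, and 96.96 against 98.9 CPM for SOT16 and SOT18. The sources used here do not give the counting rule for reads matching more than 1 copy, so the split between similar copies is uncertain.

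**Figure D3:**
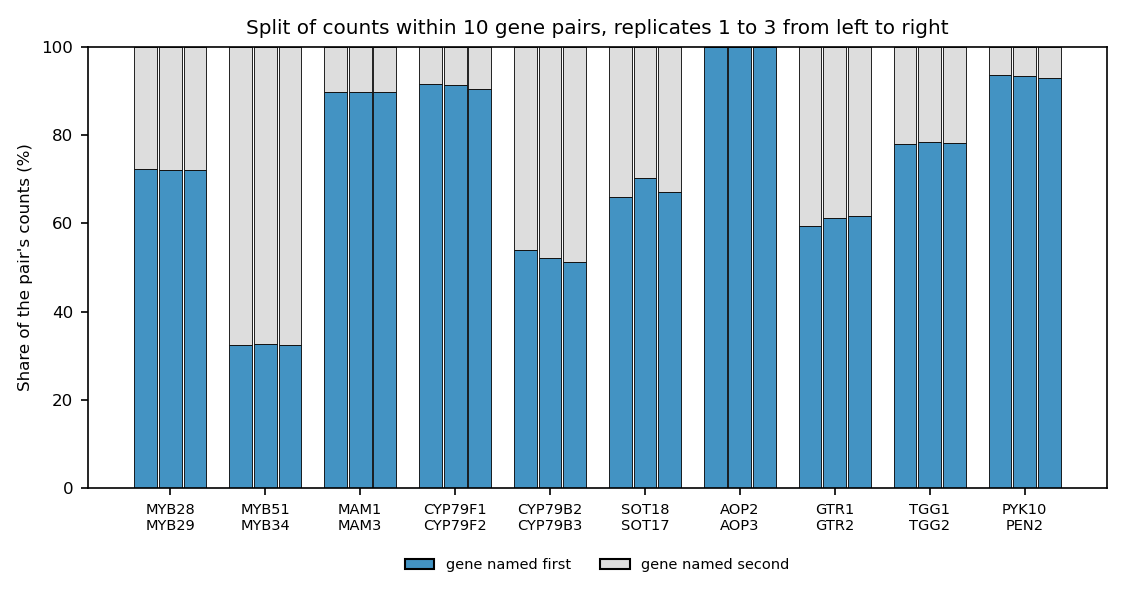
Share of reads, in percent, within 10 pairs of related genes, with 1 stacked bar per library (replicates 1, 2 and 3 from left to right). Blue is the gene named first and grey the gene named second. The bars of a pair differ little between libraries, with SOT18 and SOT17 the least steady, at 66.0%, 70.3% and 67.2% for SOT18.

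The spread between libraries was small for most members. The median coefficient of variation was 3.04% over the 39 expressed members, beside 7.22% over all expressed genes. Among genes of 100 CPM and over it was 2.78% for 19 members and 3.61% for all such genes. Among genes of 10 to under 100 CPM it was 3.12% for 18 members and 6.07% for all such genes. Neither class is matched on level: the members' median was 261 CPM and that of all genes 165 CPM in the upper class, and 44.1 and 28.8 CPM in the lower one. SOT17 at 11.7%, FMO GS-OX1 at 11.6%, MYB76 at 10.7% and ESP at 9.77% had the widest spread of the expressed members.

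Whether a gene varied beyond counting error was tested with edgeR's goodness-of-fit test, with Benjamini-Hochberg adjustment over all 18915 expressed genes. It called 15 of 39 members, against 32.8% of all genes, a share near the background. At an unadjusted p under 0.05 it had 17 of 39, against 43.7% of all genes. At 100 CPM and over it called 9 of 19 members, against 60.5% of all genes of that class, and at 10 to under 100 CPM 6 of 18, against 32.3%. Low counts in the table were mostly even, so both reads of a pair may have been counted. With counts halved, 4 of 39 members were called, CYP83A1, SOT17, FMO GS-OX1 and PEN2, against 6.4% of all genes. A second form of the test used edgeR's trended dispersion, which sets each gene against genes of its level. It called 0 of 39 members, against 0.148% of all genes, or 0.137% with counts halved. Unadjusted, only SOT17 fell under 0.05, against 4.61% of all genes. No member passed this second test under any alternative scaling, filter, dispersion or left-out library tried. The test could hardly have called one: on simulated counts it called 1 of 50 genes changed 1.5-fold in 1 library. The largest log2 difference of an expressed member to the other libraries lay under 1.5-fold, at -0.297 for FMO GS-OX1 in replicate 3. No steadiness is therefore read from the 0 of 39.

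CYP83A1 was called beyond counting error most firmly (edgeR goodness-of-fit, adjusted p = 6.86e-11), and without each library in turn the adjusted p was 0.0131, 1.34e-11 and 0.00855. With counts halved, for the case that both reads of a pair were counted, the adjusted p was 6.96e-05. CYP83A1 was highest in replicate 1 and lowest in replicate 3. SOT17 (adjusted p = 1.09e-05) rested on its low replicate 2, since without that library the adjusted p was 0.213. FMO GS-OX1 (adjusted p = 0.000114), low in replicate 3, had an adjusted p of 0.731 without it. PEN2 (adjusted p = 9.27e-05), high in replicate 3, had 0.359 without it. ESP (adjusted p = 0.00148), also high in replicate 3, had 0.817 without it and 0.115 with counts halved. Calls of the other members ended too when 1 library was left out, and with counts halved none of them was called. MAM1, CYP79F2, CYP83B1, GGP1 and ESM1 lost the call without replicate 1, and CYP83B1, FMO GS-OX3, GTR1, GTR2 and TGG2 lost it without replicate 2. IMD1, CYP79F2, GTR2 and ESM1 lost it without replicate 3. TGG1 gained it without replicate 1. The high replicate of ESP and PEN2 was the library with the most rRNA, whose part in these values was not tested.

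**Figure D4:**
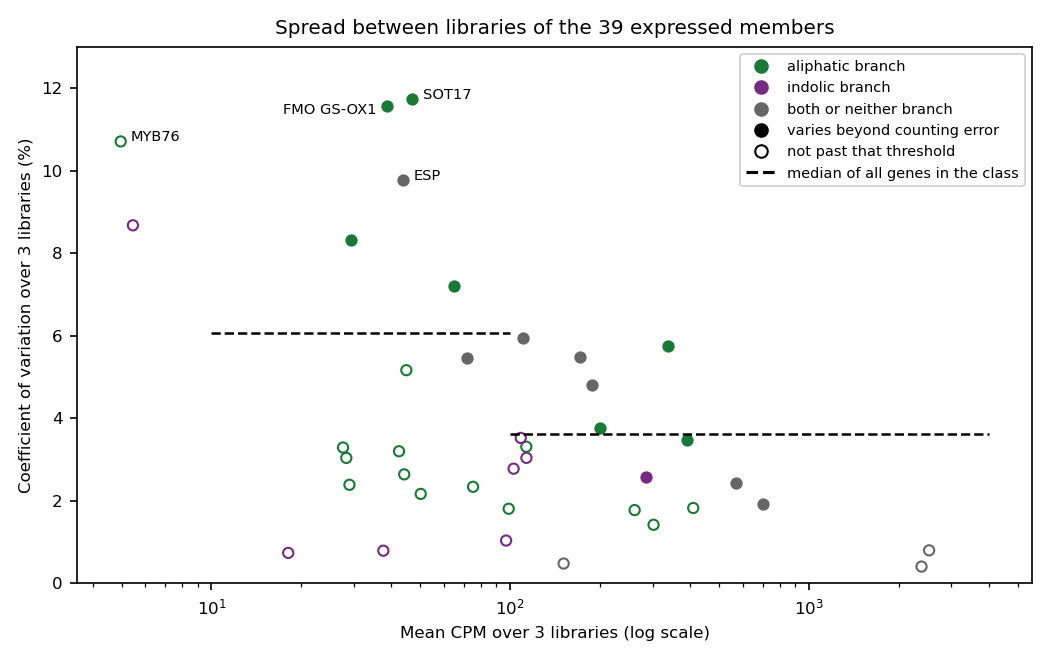
Coefficient of variation over the 3 libraries, in percent, against mean CPM on a log axis, for the 39 expressed members. Filled points varied beyond counting error, and dashed lines are the medians of all genes of 10 to under 100 CPM (6.07%) and of 100 CPM and over (3.61%). PYK10 and TGG1 lie at the lower right with values under 1%.

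Genes of the same role often lay on the same side in a library, by small amounts. All 6 elongation genes were above the mean of the other libraries in replicate 1 (51.4% of all expressed genes were), with a median log2 difference of 0.047, beside 0.0049 over all expressed genes. All 3 leaf mesophyll markers were above it in replicate 1 as well, with a median of 0.074. In replicate 3, where 0 of 6 elongation genes were above it, 2 of 3 of these markers were, with a median of 0.011. In replicate 2, 2 of 6 elongation genes and 0 of 3 of these markers were above it. The part of these markers in the elongation values was not tested. All 6 breakdown genes were above it in replicate 3 (49.5% of all genes were), with a median of 0.043, beside -0.0017. Of the 4 guard and myrosin cell markers 3 were also above it in replicate 3, with a median of 0.15. In replicate 1, where 1 of 6 breakdown genes was above it, 3 of 4 of these markers were too, with a median of 0.020. The marker below it there was FAMA, at -0.20, 0.074 and 0.13 in replicates 1, 2 and 3. The part of these 4 markers in the breakdown values was not tested. In replicate 3, 0 of 5 expressed regulators and 0 of 6 elongation genes were above it, with medians of -0.036 and -0.024. Both transporters were above it in replicate 2 (50.9% of all genes were), as were 2 of 3 phloem markers, with a median of 0.12. In replicate 1, where 1 of 2 transporters was above it, 2 of 3 phloem markers were too, with a median of 0.11, and their part was not tested. Over branches, 14 of 21 aliphatic and 4 of 8 indolic members were above it in replicate 1. The 14 include all 6 elongation genes, which have no indolic counterpart. Genes of a library share its RNA, so these counts are not independent, and they were not tested.

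**Figure D5:**
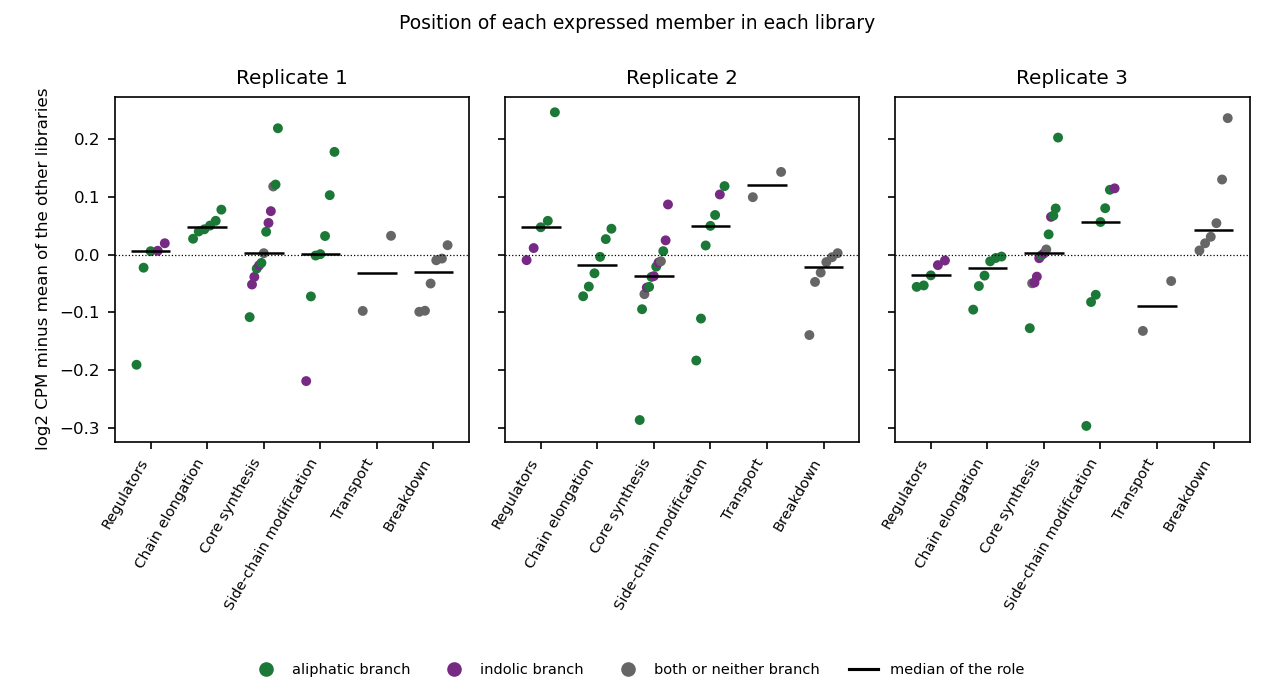
Log2 CPM of each expressed member in a library minus the mean of the other libraries, by role, with 1 panel per library. Black bars are medians. Elongation genes all lie above 0 in replicate 1 and below 0 in replicate 3, and breakdown genes all lie above 0 in replicate 3. Regulators all lie below 0 in replicate 3, and both transporters lie above 0 in replicate 2 and below 0 in replicate 3. Core and side-chain genes lie on both sides in every library.

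A second list held 54 other genes tied to glucosinolates: sulfur donors, glutathione transferases, further modifying enzymes, specifier proteins, beta-glucosidases and regulators. Of these 46 were expressed and 17 reached 100 CPM, with a median of 36.4 CPM beside 96.96 CPM for the 41 members. The most reads per gene fell on AT2G25450, which the gene table does not name, at 955 ± 4.98 CPM. PEN3 (AT1G59870), a plasma membrane ABC transporter that acts with PEN2, stood at 873 ± 26.9 CPM. The glutathione transferase genes GSTF9 (AT2G30860) and GSTF10 (AT2G30870) stood at 839 ± 66.6 and 356 ± 4.63 CPM, the nitrile specifier gene NSP1 (AT3G16400) at 381 ± 16.4 CPM, and the ER body beta-glucosidase gene BGLU18 (AT1G52400) at 359 ± 7.79 CPM.

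At the other end of that list, CYP79C1, CYP79C2, MYB115 and MYB118 had no count in any library. MYB115 and MYB118 are known as regulators of benzoyloxyglucosinolate synthesis in seeds. In the test against counting error 26 of the 46 expressed genes were called (edgeR goodness-of-fit, adjusted), against 32.8% of all genes. That share rises with level: it was 60.5% for all genes of 100 CPM and over, and 17 of these 46 reached 100 CPM. The 2 shares are therefore not matched on level. Against genes of their own level edgeR called none, and 1 had an unadjusted p under 0.05. GSTF9 was the firmest call of the first test (adjusted p = 6.78e-56), at 910.5 CPM in replicate 1, 829 in replicate 2 and 779 in replicate 3.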

How the data were processed

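Per the labels, total RNA of 3 seedling samples was made into libraries with a stranded kit. The deposited values are raw counts for each gene, in a column for each library. Tools named per the submitters' processing notes are featureCounts, HISAT2, cutadapt, deepTools 3.5.1, SAMtools 1.13 and Bowtie2 2.4.5, with build TAIR10 and no role stated. The sources used here do not give the annotation release, strand setting or handling of multi-mapping reads and read pairs, so overlapping and similar genes are uncertain. Even values made up 86.2%, 85.6% and 84.5% of the gene counts from 1 to 19 in the 3 libraries. Intervals and floors cover counting error only.

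CPM were computed in edgeR 4.0.16 (R 4.3.3) with TMM scaling (factors 0.989 to 1.01). Levels per coding length were planned, but no lengths of the authors' build were used, so ratios are of counts. Replicate spread was tested with edgeR's goodness-of-fit test (deviance against a chi-square with 2 degrees of freedom) at dispersion 0 or the trended dispersion, on genes of at least 1 CPM, adjusted p under 0.05. Differences to the other libraries used a prior count of 2. On simulated counts for 18915 genes, the trended test called 1 of 50 genes changed 1.5-fold in 1 library, 42 of 50 changed 2-fold and 50 of 50 changed 4-fold, and 0 of 18715 unchanged ones. The average chi-square of a gene between 2 libraries was 4.18 to 13.95, against 1 for counting noise alone. Pair counting or a second preparation of the same RNA would raise it as well, so whether the RNA was independent was not settled, and each library was counted as 1 sample.

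Names came from a RefSeq gene table (TAIR10.1), which held 40 of 41 member names. Members and lists were chosen with earlier results of these data known. All 41 members may be named. Of the second list, the 6 genes with the highest and 4 with the lowest mean CPM were named by rule, plus any varying beyond its level, and the closing observations name others chosen after their values were seen. No sequences were printed.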

Additional observations from a re-analysis of the deposited data

How the results depend on the processing

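The 7 branch ratios and 10 pair ratios kept their direction when any library was left out. Taking the median in place of the sum over branch genes turned the ratio to -0.98. Leaving out IIL1 and IMD1 or UGT74B1 did not turn it, nor did the highest MYB gene of each branch turn the regulator ratio. CYP81F4 in place of CYP81F2, chosen after seeing the data, turned the side-chain ratio to -0.42, and a doubled floor for AOP3, also chosen then, kept the direction of AOP2 over AOP3. The ratio without length correction is the one reported, since no lengths were used. The count of members expressed stayed between 39 and 40 for thresholds of 0.5 and 2 CPM. The count of genes beyond counting error (6197) was 2964 to 3862 without 1 library and 1211 with counts halved. The count of members so called (15) was 8 to 11 without 1 library and 4 with counts halved, and it was 14 to 16 under other scalings and filters. The count of genes beyond their own level (28) was 13 with a filter at 10 CPM, 161 with a common dispersion and 6 to 29 without 1 library, and no member was ever among them. The cause of these moves was not tested beyond fewer libraries, genes or counts entering. TGG1 passed the test against counting error with DESeq2 size factors (adjusted p = 0.0343) and PYK10 with library totals only (adjusted p = 0.0121), and TGG1 also without replicate 1 (adjusted p = 0.0209), but neither did in the reported setting. UGT74B1 passed with library totals only (adjusted p = 0.0358), where CYP79F2, CYP83B1 and TGG2 did not. No paired analysis was possible because there is a single RNA group. Depth limits what can be said of AOP3, MYB122, MYB76 and CYP81F2.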

Other observations

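The following genes of the second list were chosen after their values were seen. The indolic modification genes differed widely within their family. CYP81F4 (AT4G37410), an indole hydroxylase of 1-methoxyindole glucosinolate synthesis, stood at 292 ± 4.69 CPM (SD, n = 3), against 5.46 ± 0.474 CPM for its relative CYP81F2. CYP81F1 (AT4G37430, CYP91A2 in the gene table) stood at 6.27 ± 1.33 CPM and CYP81F3 (AT4G37400) at 2.80 ± 0.155 CPM. CYP81F4 alone had more reads than the 5 FMO GS-OX genes together, which summed to 219 ± 5.66 CPM, so the side-chain ratio in the branch comparison rests on CYP81F2 as the only indolic gene. The methyltransferase genes IGMT5 (AT1G76790) and IGMT1 (AT1G21100) stood at 64.5 ± 4.17 and 34.5 ± 4.48 CPM, and IGMT2 (AT1G21120) at 3.29 ± 0.874 CPM.

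Of the nitrile specifier genes, NSP5 (AT5G48180) stood at 257 ± 16.5 CPM, NSP4 (AT3G16410) at 15.3 ± 3.13 CPM, NSP3 (AT3G16390) at 2.67 ± 0.526 CPM and NSP2 (AT2G33070) at 0.348 ± 0.0709 CPM. NSP4 was the gene of the second list with an unadjusted p of 0.0146 against genes of its level, and its adjusted p was 0.908 (edgeR goodness-of-fit). The root myrosinase genes TGG4 (AT1G47600) and TGG5 (AT1G51470) stood at 6.79 ± 1.22 and 5.63 ± 0.223 CPM, far below the shoot gene TGG1 in reads. The ER body gene NAI2 (AT3G15950) stood at 290.0 ± 4.19 CPM and its regulator NAI1 (AT2G22770) at 24.3 ± 3.53 CPM.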
